A study of Mus musculus
Rattus norvegicus and Rattus norvegicus and Mus musculus with 18 samples.

Results

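The collagen genes of 4T1 tumor cells and of their rat host were followed across tumor core, tumor rim and lung. Members were all genes with a symbol of the form Col, a number, a and a number, in the deposited tables of mouse and of rat genes, with Col17a1 left out by the rule. The rule gave 34 of 17672 mouse genes and 33 of 14876 rat genes, 67 in all, and 27 symbols were in both tables. Rat Col1a2, Col6a3 and Col10a1 were among the genes not analysed here.

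Collagens are the main proteins of the extracellular matrix, and each is a trimer of chains that wind into a triple helix. Fibrillar collagens such as types I, III and V form the fibers of connective tissue and tumor stroma, and basement membrane collagens such as type IV form the sheet under epithelia and around vessels. Network collagens, here types VI, VII, VIII and X, build filaments, anchoring fibrils and lattices, and FACIT collagens (fibril-associated collagens with interrupted triple helices) sit on the surface of fibrils. Fibroblasts are the usual source of fibrillar collagen in a carcinoma, and the carcinoma cells themselves are known for making basement membrane chains.

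The tissue came from immunodeficient SRG rats, which lack functional Rag2 and Il2rg and with them B, T and NK cells, on day 27 after 4T1 cells, a mouse mammary carcinoma line, were placed in the mammary fat pad. Mouse reads therefore stand for tumor cells and rat reads for the host; the labels give every library the genotype wildtype and no treatment. The libraries were 5 of necrotic tumor core and 5 of non-necrotic tumor rim, taken from the same 5 rats (Rat3867, Rat3869, Rat3875, Rat3876 and Rat3877), and 5 of lung, of which 4 came from these rats and 1 from Rat3789. Normal rat mammary gland without a transplant (2 libraries) and a pellet of 4T1 cells (1 library) served as references of a single species. The injected cells were a single line, so its clones are not separated, and nothing in the labels says whether the 2 gland libraries came from different animals. Values below are in CPM, read counts relative to all reads of the species in a library on the authors' scale; values in every library follow the order of the rats as just named, without Rat3867 for the lung, and Rat3789 is given apart. Since the authors scaled each species by itself, a mouse level is never set against a rat level.

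The libraries held 15346400 to 26669410 mouse reads and 3146720 to 10015352 rat reads. The library labelled lung of Rat3789 went against its label on the host side. The alveolar transcript Sftpc, the surfactant protein of type 2 pneumocytes, stood at 1.88 CPM there, against 3126 to 5676 CPM in the other 4 lungs, and Ager, a marker of type 1 pneumocytes, at 8.25 against 760.4 to 1417 CPM. Its 5 alveolar markers summed to 237 CPM, against 5601 to 10264 CPM, and its 5 adipocyte markers to 846 CPM, against 71.5 to 121 CPM. Lung results are therefore given with and without this library. The summed level of 9 host fibroblast markers was 623 to 1391 CPM in the core and 4149 to 8186 CPM in the rim. The lowest of these markers in any of these libraries was Dpt, at 5.42 CPM in a core. In bulk tissue, fewer cells of a type and less RNA per cell cannot be told apart.

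The triple helix needs glycine as the first residue of every Gly-X-Y triplet, and most exons of fibrillar collagen genes start with a glycine codon and hold a whole number of these triplets. For 1 member of each main type among those that rose in tumor cells of the core, 1 such exon is shown from GRCm38 with GENCODE M21 models, 5′ to 3′ on the coding strand. Capitals mark the glycine codon that opens each triplet, and glycine codons in other positions are in lower case. The fibrillar Col5a1 (exon 15, chr2:27965251-27965304, plus strand), Col6a1 (exon 9, chr10:76719623-76719676, minus strand) and Col12a1 (exon 57, chr9:79612916-79612969, minus strand) have 54 bases each with an unbroken repeat. The Col4a5 exon (exon 9, chrX:141578672-141578752, plus strand) has 81 bases and holds an interruption, seen as the long stretch without capitals.
Col5a1: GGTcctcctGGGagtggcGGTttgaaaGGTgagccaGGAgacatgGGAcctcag
Col6a1: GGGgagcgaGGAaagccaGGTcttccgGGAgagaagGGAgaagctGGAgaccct
Col12a1: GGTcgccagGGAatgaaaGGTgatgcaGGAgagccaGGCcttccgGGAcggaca
Col4a5: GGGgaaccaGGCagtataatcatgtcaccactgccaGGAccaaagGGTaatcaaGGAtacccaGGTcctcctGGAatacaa

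The longest unbroken Gly-X-Y run in the mouse coding sequence was 338 triplets in Col1a1, Col5a1, Col11a1 and Col11a2, 344 in Col3a1, 216 in Col24a1 and 217 in Col27a1. It was at most 66 triplets in the type IV genes, with 22 runs in Col4a1 and 27 in Col4a4. Col6a1 and Col6a2 reached 87. Among the FACIT genes Col9a1 and Col9a3 reached 113 and Col16a1 52, while Col12a1, Col14a1 and Col20a1 reached 32, so the length of the run varied within this type. Exons of exactly 54 bases numbered 33 in Col24a1 and in Col27a1, 31 in Col11a2 and 29 in Col5a1, against 14 in Col9a1 and in Col9a3, 12 in Col16a1, 4 in Col12a1 and 3 in Col4a5.

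Collagen genes took a larger share of host reads in the rim than in the core, and a small share of tumor-cell reads in every tissue. In the rim, 5.73 ± 1.07% of rat reads fell on collagen genes (SD, n = 5), with a range of 4.30 to 6.83%. In the core it was 1.17 ± 0.391%, with a range of 0.711 to 1.62%, so that no core library reached the lowest rim library. Fibrillar genes made up 4.50 ± 0.838% of rat reads in the rim and 0.755 ± 0.361% in the core, while basement membrane genes took 0.300 ± 0.0676% and 0.188 ± 0.0654%. The host share in the gland, where the mammary fat pad carried no tumor, was 0.238% and 0.499% in its 2 libraries. All host shares leave out Col1a2, Col6a3 and Col10a1, which were not analysed in rat reads.

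Collagen genes held 0.379 ± 0.0489% of the mouse reads of core libraries, 0.310 ± 0.0273% of those of rims and 0.333 ± 0.0582% of those of lungs (SD over 5 libraries; lungs without Rat3789 held 0.308 ± 0.0217%), against 0.0880% in the pellet. In tumor cells basement membrane and network genes made up most of it, whereas fibrillar genes led in the host rim. Basement membrane genes had 0.171 ± 0.0291% in core libraries and 0.168 ± 0.0214% in rims, and fibrillar genes took 0.0193 ± 0.00423% and 0.0138 ± 0.00277%. Network genes took 0.138 ± 0.0159% and 0.102 ± 0.00967%, and FACIT genes 0.0506 ± 0.00495% and 0.0266 ± 0.00267%. The lowest FACIT share of a core library lay above the highest of a rim library, and the basement membrane shares of core and rim overlapped.

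**Figure D1:**
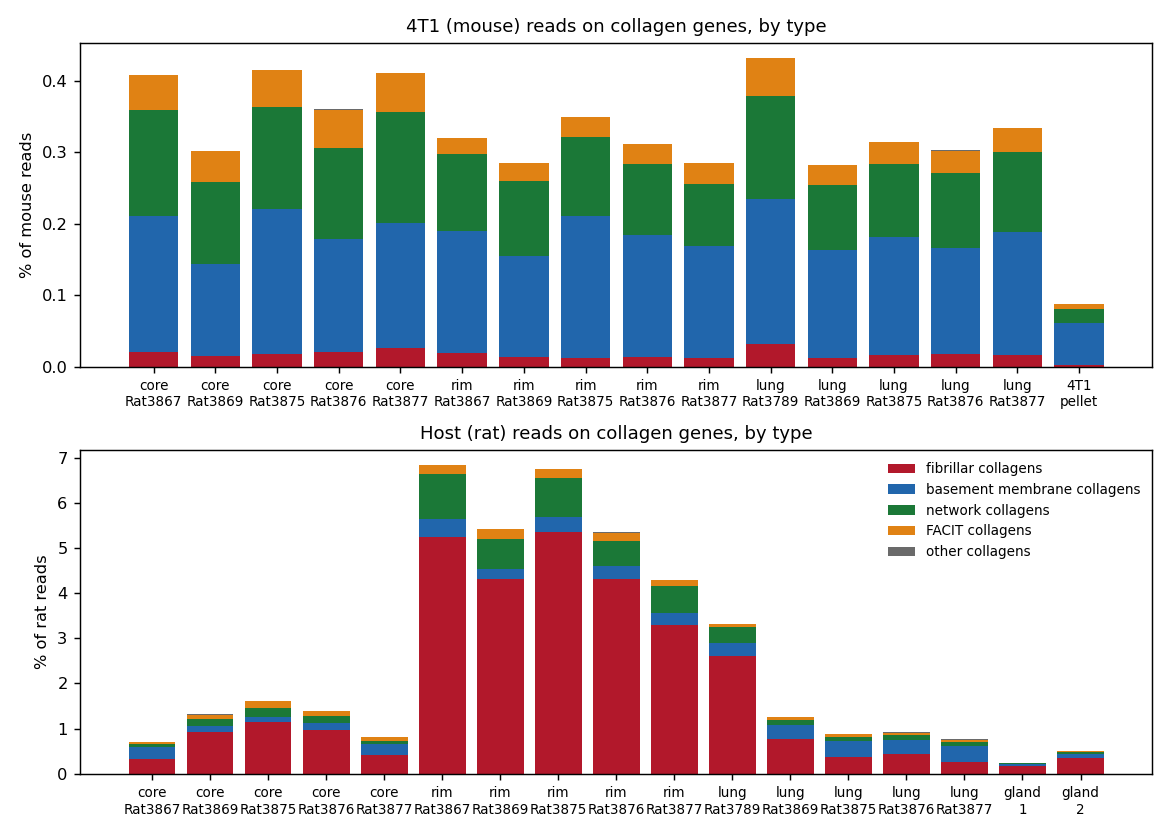
Percent of mouse reads (top) and of rat reads (bottom) that fell on collagen genes in each library, stacked by collagen type. Host bars are tallest in the 5 rims, at 4.30 to 6.83%, and are mostly fibrillar, while the tumor-cell bars are mostly basement membrane and network genes and the pellet is lowest at 0.0880%.

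Core and rim of the same rats were compared first in mouse reads, which describe the tumor cells of the necrotic core and of the living edge. Of 34 mouse members, 24 were tested, since they reached 1 CPM in no fewer than 5 core and rim libraries. In limma over all 13070 mouse genes with the rat as a block, 14 were higher in the core, 3 were lower and 7 were not called. Over all mouse genes, 19.8% were called, 10.1% as higher and 9.63% as lower. Values below in the form of a number ± a number with an adjusted p are limma's log2 difference ± its standard error and the p-value with Benjamini-Hochberg adjustment over all genes tested, and levels given as a number ± a number in CPM are means ± SD over 5 libraries. The p-values measure only the spread between these rats. The median log2 difference, core minus rim, was 0.78 over the tested members and 0.01 over all genes tested. Col28a1 passed the filter through the core libraries only, so its call is no support for the count; among the 23 members with a library at 1 CPM in both tissues, 13 were higher and 3 lower, with a median of 0.67. Higher members numbered 3 of 8 fibrillar, 3 of 5 basement membrane, 3 of 5 network and 4 of 5 FACIT members. The tumor-cell members rose beside the 3 tested fibroblast marker genes of the mouse table, the proteoglycan Dcn (5.47), the receptor Pdgfra (0.92) and Pi16 (1.97), and beside a fall of 4 of 5 epithelial markers, of which Krt14 fell most (-3.98). The 7 fibroblast markers in the mouse table summed to 104 to 416 CPM in the core and 59.1 to 117 CPM in the rim, although Fap, Fbln1, Dpt and Thy1 reached at most 1.46 CPM in any core or rim, and the epithelial ones to 2269.9 to 3738 CPM and 3994 to 4849 CPM. The part of these in the result was not tested.

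Among fibrillar genes, Col5a1, the α1 chain of type V collagen that helps to start fibrils, was the most abundant in tumor cells. Its values were 166, 95.9, 142, 147 and 196 CPM in the core and 83.7, 73.1, 84.9, 44.8 and 95.3 CPM in the rim. The groups did not overlap, although the lowest core library, that of Rat3869, and the highest rim library, that of Rat3877, nearly met. The fitted difference was 1.96-fold (0.97 ± 0.17, adjusted p = 0.00621). Col11a2, a minor fibrillar chain best known from cartilage, rose from 3.92, 6.95, 3.83, 6.26 and 3.07 CPM in the rim to 23.7, 40.7, 18.7, 21.2 and 38.2 CPM in the core. Every core library was above every rim library (2.56 ± 0.24, adjusted p = 0.000723). Col2a1, the main cartilage collagen, rose at a low level, from 0.952 ± 0.317 to 3.68 ± 1.5 CPM (1.95 ± 0.35, adjusted p = 0.00761). Of 5 cartilage markers, Sox9 alone was tested in mouse reads, and it was not called (0.32 ± 0.18, adjusted p = 0.24).

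The most familiar fibrillar chains were scarce in tumor cells. Mouse Col1a1, the α1 chain of type I collagen, had 5.19, 2.50, 4.58, 17.3 and 18.7 CPM in the core and 61.7, 17.7, 3.69, 48.0 and 1.27 CPM in the rim, and the groups overlapped (-0.73 ± 0.91, adjusted p = 0.609). Its partner chain Col1a2 stayed at or below 0.531 CPM in every core, rim and lung library, and Col3a1 at 0.118 to 0.587 CPM in the core and 0.993 to 2.72 CPM in the rim. Col5a2, the α2 chain of type V, fell from 15.4, 15.8, 12.5, 23.5 and 13.4 CPM in the rim to 2.10, 3.28, 4.43, 1.96 and 1.87 CPM in the core (-2.61 ± 0.28, adjusted p = 0.00114). Col5a3 fell from 2.87 ± 0.705 to 0.593 ± 0.413 CPM (-3.01 ± 0.79, adjusted p = 0.0301), and its 5 core libraries held 60 reads in all, so that the size of the difference is uncertain. The call of Col5a3 was lost without Rat3875 and without Rat3876 (largest adjusted p = 0.097). Col24a1 (0.22) and Col27a1 (-1.44) were not called.

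The gland libraries hold no mouse cells. The mouse reads counted in them were taken as misplaced host reads, which gave a rate for each gene. Whether all of them are misplaced host reads was not tested, so the expected host reads below rest on this premise. For each symbol, the mouse reads per rat read of the gland were multiplied by the rat reads of the same tumor library. The estimate was made where the gland held at least 50 rat reads of the gene. For Col5a2, 119 mouse reads stood beside 3526 rat reads in the gland, and the expected host reads came to 122% of the mouse Col5a2 reads of core libraries and 123% of those of rims. For Col1a1 they came to 20.8% and 72.3%, and for Col14a1 to 43.8% and 105%. With these reads subtracted, Col5a2 differed by -0.06 (adjusted p = 0.971) and was no longer called. The mouse reads of Col5a2 thus did not exceed those expected from the host.

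Among rising members the expected host share was larger in the rim than in the core. For mouse Col12a1 they came to 3.15% in the core and 72.2% in the rim. They were 1.21% and 50.9% for Col6a2, 0.545% and 15.3% for Col5a1, and 0.356% and 11.5% for Col6a1. For Col8a1 the estimate of 8.56% and 65.0% rests on 67 rat and 84 mouse reads in the gland, so that its rate exceeds 1 mouse read per rat read. After subtraction 15 members were called higher and 1 lower. The 15 include Col14a1, whose expected host reads exceeded its rim reads. Without the 6 members whose expected host reads exceeded 10% of their reads over both regions, 18 were left, of which limma called 12 higher and 0 lower, with 2 lower at an unadjusted p under 0.05. DESeq2 and edgeR were not run on this reduced set. Those 6 were Col14a1, Col1a1, Col5a2, Col5a3, Col6a2 and Col8a1, and all 3 members called lower are among them. Of the 12 left as higher, Col2a1 and Col28a1 had no rat gene of the same symbol here, and Col4a6 had only 4 rat reads in the gland. Host reads of these members could not be estimated, so nothing was subtracted from them and they could not be left out.

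**Figure D2:**
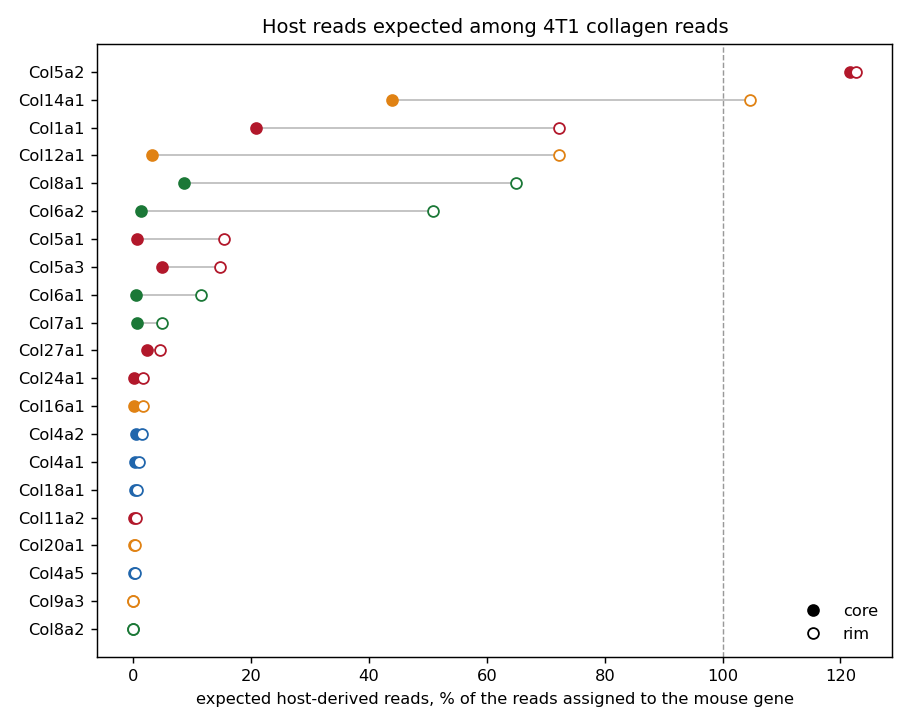
Host reads expected among the reads of each mouse collagen gene, as a percent of its reads, in the core (filled) and the rim (open), for tested members with at least 50 rat reads in the gland; colors give the collagen type as in the plot of shares. Col5a2 lies beyond the dashed line of 100% in both regions and Col14a1 in the rim, Col12a1 and Col8a1 lie at 72.2% and 65.0% in the rim, and most basement membrane genes lie near 0.

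Type IV collagen, the sheet-forming collagen of basement membranes, differed by chain. Col4a5 had 123, 52.5, 88.0, 131 and 164 CPM in the core and 33.9, 33.6, 23.6, 59.3 and 20.3 CPM in the rim. The core was higher in 5 of 5 rats, although the core of Rat3869 lay below the rim of Rat3876 (1.71 ± 0.28, adjusted p = 0.0056). Col4a6, its partner in the α5α5α6 trimer, had 14.0, 8.72, 13.3, 8.40 and 14.4 CPM in the core and 1.22, 3.44, 2.55, 1.27 and 0.823 CPM in the rim, with no overlap (2.82 ± 0.36, adjusted p = 0.00252).

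The abundant chains of the α1α1α2 trimer moved less. Col4a1 had 642, 443, 655, 477 and 634 CPM in the core and 538, 414, 553, 401 and 455 CPM in the rim, higher in the core in 5 of 5 rats, but not called (0.27 ± 0.09, adjusted p = 0.0678). Col4a2 was higher by 0.46 ± 0.11, adjusted p = 0.0193, a call that was lost without Rat3867 and without Rat3875. Col18a1, whose C-terminal part is endostatin, was the most abundant basement membrane gene per length, at 106 CPM per kb of exon in the core and 132 in the rim, before Col4a1 at 76.4 and 63.3. It had 865, 560.2, 990.5, 699.8 and 615 CPM in the core and 867, 706, 1131, 1033 and 901 CPM in the rim, lower in the core in 5 of 5 rats and not called (-0.33 ± 0.11, adjusted p = 0.0675). Expected host reads were at most 1.52% of the reads of Col4a1, Col4a2, Col4a5 and Col18a1.

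Neighbouring chain genes lie in pairs in the mouse genome (GRCm38). Col4a1 (chromosome 8, 11198423 to 11312826, minus strand) and Col4a2 (11312805 to 11449287, plus strand) face away from each other, and their annotated bodies overlap at the starts. Col4a6 (chromosome X, 141165403 to 141474076, minus strand) and Col4a5 (141475385 to 141689234, plus strand) have the same arrangement, and Col6a2 (chromosome 10, 76595762 to 76623630) and Col6a1 (76708792 to 76726168) follow each other on the minus strand. Within each pair the log2 differences, core minus rim, had the same sign: 0.27 and 0.46, 2.82 and 1.71, and 1.62 and 1.60. Col18a1 overlaps Slc19a1 on the other strand and Col9a3 overlaps Tcfl5; whether reads were counted by strand is unknown here, so reads of these overlaps cannot be assigned with certainty.

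Of type VI collagen, the beaded filament around cells, the α1 and α2 chains rose in tumor cells of the core. Col6a1 had 209, 213, 242, 181 and 349.8 CPM in the core and 55.0, 63.7, 112, 86.1 and 78.4 CPM in the rim, with every core library above every rim library (3.03-fold, 1.60 ± 0.17, adjusted p = 0.00108). Col6a2 had 18.8, 22.3, 25.9, 18.8 and 59.3 CPM in the core and 8.90, 6.17, 7.64, 14.8 and 7.06 CPM in the rim, with the core of Rat3877 far above the others (1.62 ± 0.33, adjusted p = 0.0113). Col6a3, the long α3 chain needed for the trimer, did not pass the filter in core and rim. It had 3.02, 1.07, 0.333, 0.421 and 38.9 CPM in the core and 0.167 to 0.474 CPM in the rim, and the core of Rat3877 again stood far above the rest. Per kb of exon, Col6a1 stood at 54.6 CPM in the core, Col6a2 at 3.49 and Col6a3 at 0.731; the α1 chain was the highest of the 3.

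Of the other network genes, Col7a1, the anchoring fibril collagen, was the highest per length, at 77.0 CPM per kb in the core and 71.8 in the rim. Its values of 1004, 680.5, 864, 689.5 and 724 CPM in the core and 874, 750.3, 820.4, 652 and 597 CPM in the rim overlapped (0.10 ± 0.09, adjusted p = 0.503). Col8a1, a short-chain collagen of vessel walls and basement membranes, had 319, 275, 373, 378 and 407 CPM in the core and 140.2, 211, 183, 228 and 188 CPM in the rim, without overlap (0.89 ± 0.13, adjusted p = 0.00327). Col8a2 stood at 1.83 ± 1.00 and 1.21 ± 0.728 CPM and was not called.

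The largest increase of a tumor-cell collagen was that of Col12a1, a FACIT collagen of dense connective tissue. It had 111, 112, 152, 183 and 199.8 CPM in the core and 10.7, 35.3, 14.6, 13.5 and 7.81 CPM in the rim, where Rat3869 stood apart from the others. The lowest core library was above the highest rim library, and the fitted difference was 10.4-fold (3.37 ± 0.34, adjusted p = 0.000966). With 72.2% of its rim reads expected from the host, the log2 difference after subtraction was 8.98 (adjusted p = 0.00659), a value that rests on few remaining rim reads.

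Col20a1, a little studied FACIT gene, had 22.1, 24.5, 14.3, 11.8 and 31.9 CPM in the core and 2.87, 4.04, 2.64, 3.20 and 2.52 CPM in the rim (2.71 ± 0.24, adjusted p = 0.000668), with no overlap and expected host reads at 0.328% in the rim. Col16a1, by far the most abundant FACIT gene of tumor cells, had 379, 302, 386, 336 and 327 CPM in the core and 217, 198, 259.9, 250.1 and 284 CPM in the rim. Every core library exceeded every rim library, by a small step (0.52 ± 0.10, adjusted p = 0.01). Col9a3 rose from 1.09 ± 0.456 to 2.48 ± 0.749 CPM (1.26 ± 0.33, adjusted p = 0.0299), a call lost without each of Rat3867, Rat3869, Rat3875 and Rat3876. Col14a1 had 0.603, 0.979, 0.537, 0.867 and 2.53 CPM in the core and 1.72, 1.09, 3.40, 10.1 and 3.42 CPM in the rim and was called lower (-1.66 ± 0.49, adjusted p = 0.045). With expected host reads subtracted its difference turned to 2.73 (adjusted p = 0.0463). That value rests on few or no remaining rim reads, since expected host reads exceeded the rim reads, and gives no direction. The lower call was also lost without Rat3867, without Rat3875, without Rat3876 and with edgeR. Col28a1, a collagen with von Willebrand domains known from nerve, had 2.2, 1.07, 1.87, 3.39 and 2.77 CPM in the core and 0.324, 0.393, 0.262, 0.652 and 0.125 CPM in the rim. It passed the filter through the core alone, and its levels are given as a description. Col23a1, a membrane collagen, stayed at 0.124 to 0.333 CPM in the core and 0.0283 to 0.577 CPM in the rim and was not tested.

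**Figure D3:**
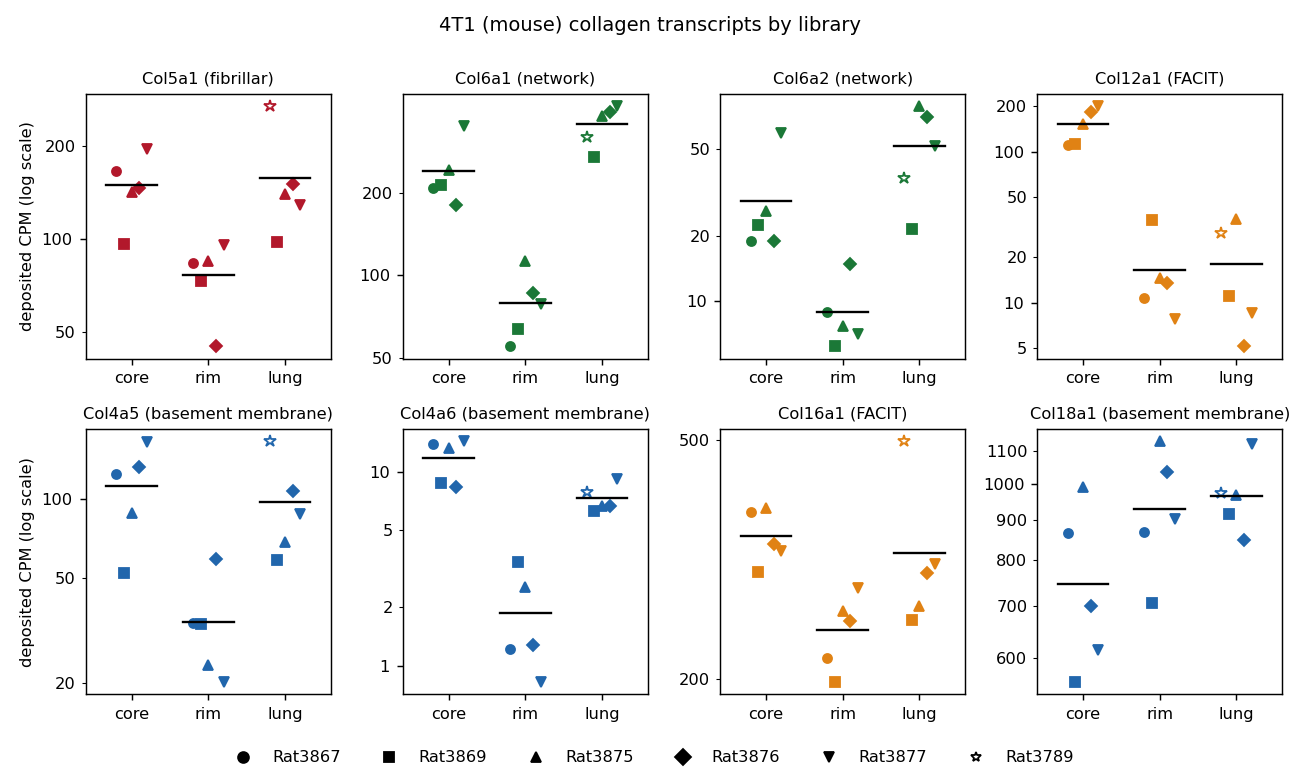
Mouse collagen transcripts in CPM (log axis) for each core, rim and lung library; markers name the rat, bars are group means, and the open star is the lung library of Rat3789. Core points of Col12a1, Col4a6, Col6a1 and Col6a2 lie above all rim points, while Col18a1 overlaps, and in the lung Col6a1 stays high (271 to 414 CPM) where Col12a1 is back at 5.14 to 35.8 CPM.

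The pellet gives the collagens of 4T1 cells outside the animal, in RPM (reads relative to all mouse reads of a library), from 1 library and thus without a test. For the pellet these are the reads of all genes counted, and for tumor and lung those of the 17672 mouse genes followed here. The 2 scales may therefore differ, as may the collagen shares of pellet and gland from those of tissue. The pellet was led by Col18a1 at 253, Col4a1 at 196, Col8a1 at 173, Col4a2 at 105 and Col16a1 at 63.4. Every core, rim and lung library exceeded the pellet for these 5 genes, except for Col8a1, whose rims ranged from 139 to 229. Col12a1 stood at 4.21 in the pellet and 106 to 195 in the core, Col5a1 at 13.8 and 92.6 to 191, and Col6a1 at 18.9 and 182 to 342. Col7a1 showed the widest ratio of core to pellet among members above 100 RPM in the core, at 15.4 in the pellet, 657 to 956 in the core and 593 to 867 in the rim. Of Col3a1, the pellet held 2 mouse reads beside 395 reads assigned to the rat gene, and of Col1a1 14 beside 413. For these 2 genes the pellet therefore held more reads assigned to rat than to mouse. Other members with such an excess included Col5a2 (32 rat and 3 mouse reads), Col5a3 (31 and 2), Col6a2 (51 and 29) and Col14a1 (11 and 2). The source of these rat reads was not tested.

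Host collagens were compared between core and rim in the same libraries, in rat reads. Of 33 rat members, 30 were tested; 22 were lower in the core, 1 was higher and 7 were not called. Over all 13559 rat genes, 37.6% were called, 20.1% as lower and 17.5% as higher. The median log2 difference was -1.72 over the members and near 0 over all genes. By type, 8 of 9 fibrillar, 5 of 7 basement membrane, 6 of 8 network and 2 of 5 FACIT members were lower. All 9 host fibroblast markers fell as well (median -2.76), among them Lum (-3.98), a proteoglycan of collagen fibrils, and Pdgfra (-3.72), as did 5 of 8 pericyte and smooth muscle markers (sum 449 to 883 CPM in the core and 1097 to 1795 CPM in the rim). Of 5 macrophage markers, 3 were higher and 2 lower in the core. The part of these cells in the fall of the collagens was not tested.

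Host Col1a1 had 28214, 22407, 25202, 18079 and 12737 CPM in the rim and 1793, 4780.3, 6525, 5028 and 1922 CPM in the core. The cores of Rat3867 and Rat3877 were the lowest, and no core reached any rim (5.84-fold lower, -2.55 ± 0.31, adjusted p = 0.000536). Col3a1, the type III chain of reticular fibers, had 19076, 16487, 26227, 20201 and 15681 CPM in the rim and 1055, 3715, 3708, 3129.9 and 1467 CPM in the core (8.29-fold lower, -3.05 ± 0.28, adjusted p = 0.000164). The same 2 cores were again the lowest.

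All 3 type V chains fell. Col5a1 had 2392, 1857, 2222, 1545 and 1367 CPM in the rim and 111, 250.4, 328, 320.2 and 107 CPM in the core (-3.21 ± 0.27, adjusted p = 0.000124). Col5a3 had 2504, 1755, 2405, 1263 and 1151 CPM in the rim and 121, 311, 215, 232 and 139 CPM in the core (-3.17 ± 0.26, adjusted p = 0.000108), and Col5a2 fell less, from 2051 ± 197 to 602 ± 247 CPM (-1.88 ± 0.22, adjusted p = 0.000484). Rim and core libraries did not overlap for any of the 3 chains. Col24a1 (-2.45), Col27a1 (-1.60) and Col11a1 (-1.07) also fell, and Col11a2 was not called (-0.10 ± 0.38, adjusted p = 0.856). The call of Col11a1 was lost without Rat3867 and without Rat3869.

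Host type VI collagen fell with them. Col6a1 had 4523, 2907, 3983, 2502 and 2660.0 CPM in the rim and 275, 696, 832, 608 and 251 CPM in the core (-2.76 ± 0.30, adjusted p = 0.000295), and Col6a2 had 4457, 2956, 4363, 2638 and 2503 CPM in the rim and 240.1, 654, 682, 585 and 173 CPM in the core (-3.02 ± 0.31, adjusted p = 0.000249). For both partner chains every rim was above every core, and Rat3867 and Rat3877 had the lowest cores. The largest decrease was that of Col6a5, a low-level α5 chain, with 22.9, 0.891, 11, 18.6 and 3.02 CPM in the rim and 0.364, 0.788, 0.159, 1.70 and 0.378 CPM in the core; its rim of Rat3869 lay among the cores (-3.74 ± 0.84, adjusted p = 0.00885). Col7a1 (-2.28), Col6a6 (-2.52) and Col8a1 (-1.33) fell too. At the pellet rate, 73.0% of the rat Col7a1 reads of the core were expected from tumor cells, 41.9% of those of Col5a1 and 25.2% of those of Col6a1. With these subtracted, the log2 differences were more negative (-5.15, -5.08 and -3.35). These values take all rat reads of the pellet as misplaced tumor-cell reads, which was not tested. Of Col3a1 the pellet held 395 rat beside 2 mouse reads, and the Col7a1 rate rests on 8 rat reads. The subtracted values therefore give no size for the host fall.

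The median log2 difference of the 7 tested host basement membrane genes was -0.70, against -2.45 for the 9 fibrillar ones. Col4a1 had 2328, 1296, 1875, 1580.3 and 1447 CPM in the rim and 1564, 871, 670.4, 847 and 1477 CPM in the core, where Rat3867 and Rat3877 were the highest, and the groups overlapped (-0.70 ± 0.19, adjusted p = 0.022). The call was lost without Rat3875 and without Rat3876. Col4a2 had 1479, 791, 1235, 812 and 844 CPM in the rim and 775, 489, 431, 472 and 830.5 CPM in the core (-0.79 ± 0.18, adjusted p = 0.0109), and Col18a1 (-0.70), Col15a1 (-1.07) and Col4a5 (-1.84) were lower. The calls of Col18a1 (without Rat3875) and Col4a5 (without Rat3867, Rat3876 or Rat3877) depended on single rats. Of 7 tested endothelial markers, 3 were lower in the core and 4 were not called, and they summed to 235 to 653 CPM in the core and 368 to 705 CPM in the rim; their part in the basement membrane values was not tested. Col4a3 (1.39 ± 0.48, adjusted p = 0.0515) and Col4a4 (-0.27 ± 0.22, adjusted p = 0.369), chains of the glomerular and alveolar basement membrane, were not called.

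Among the 5 tested FACIT genes of the host, 2 were lower, 1 higher and 2 not called. Col12a1 had 1381, 1897, 1414, 1059 and 968 CPM in the rim and 460.1, 870.2, 1546, 1021 and 652 CPM in the core; core and rim overlapped, 4 of 5 rats were lower in the core and Rat3875 was higher, and the gene was not called (-0.64 ± 0.24, adjusted p = 0.0658). At the pellet rate 20.6% of its core reads were expected from tumor cells, and with these subtracted it was called lower at -0.996 (adjusted p = 0.0182). The rate comes from 25 rat beside 124 mouse reads of the pellet. That these rat reads are misplaced was not tested, so the call after subtraction is no support for a host fall of Col12a1. Col16a1 fell from 413, 328, 488, 266 and 214 CPM in the rim to 28.0, 108, 108, 78.9 and 51.1 CPM in the core (-2.30 ± 0.29, adjusted p = 0.000632), and Col14a1 from 273 ± 131 to 61.4 ± 27.2 CPM (-2.12 ± 0.28, adjusted p = 0.000838). Col20a1 was the only host collagen called higher in the core, with 4.49, 16.5, 11.3, 5.72 and 8.20 CPM there and 2.52, 3.27, 3.45, 3.54 and 2.43 CPM in the rim (1.47 ± 0.31, adjusted p = 0.00682). The tumor-cell gene of the same symbol rose in the same libraries. The pellet held 16 mouse and 1 rat read of Col20a1, too few to estimate tumor-cell reads among the host reads, and their part was not tested. Col13a1, a membrane collagen, fell from 13.2, 17.9, 20.1, 16.5 and 12.4 CPM in the rim to 2.06, 7.41, 6.52, 2.01 and 1.39 CPM in the core (-2.35 ± 0.33, adjusted p = 0.00098), and Col26a1 (0.121 to 0.477 CPM in the core) was not tested.

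**Figure D4:**
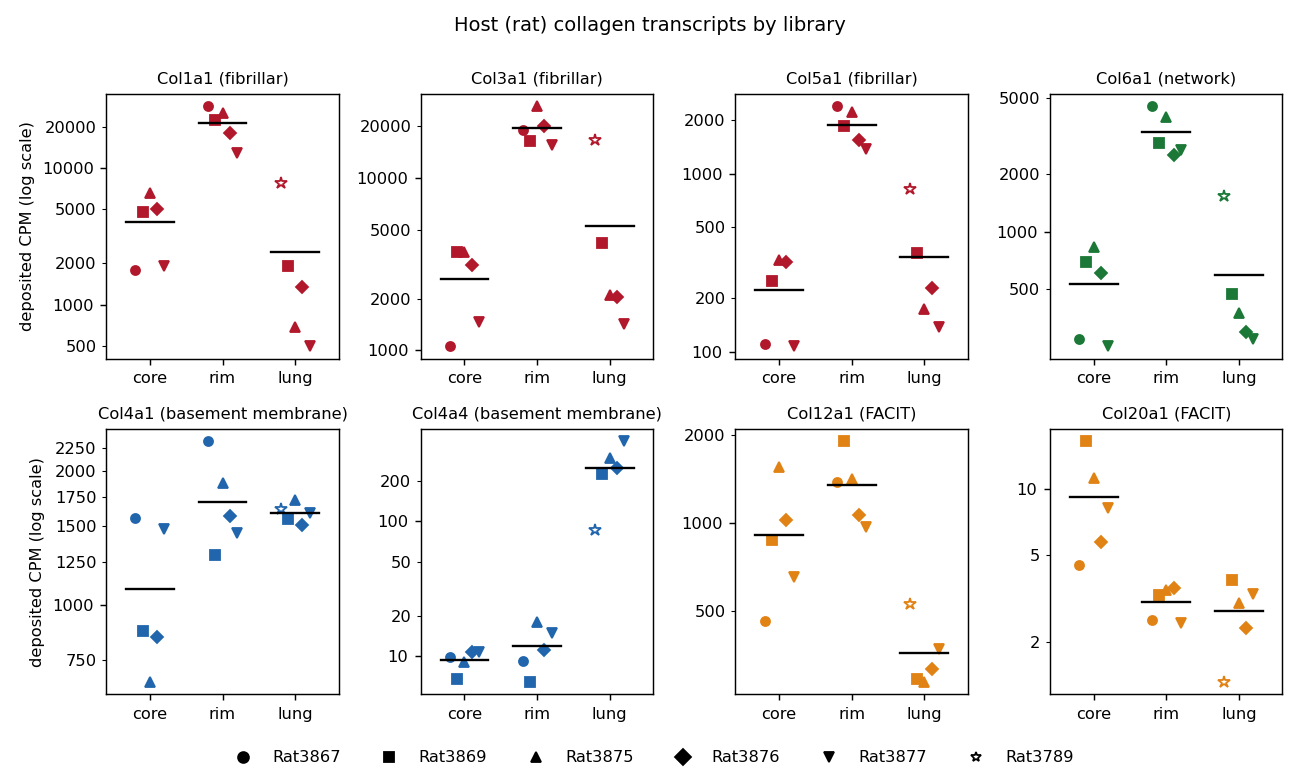
Rat collagen transcripts in CPM (log axis) for each core, rim and lung library; markers name the rat, bars are group means, and the open star is the lung library of Rat3789. Rim points of Col1a1, Col3a1, Col5a1 and Col6a1 lie above all core points, those of Col4a1 and Col12a1 overlap with the core, and Col20a1 is the only gene shown whose core points lie above all rim points.

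Because each library holds both species, the difference between core and rim could be tested between tumor cells and host within the same libraries. Limma was run on the log2 mouse value minus the log2 rat value over 9759 genes with 1 symbol in both tables. Of 27 shared collagen symbols, 20 were tested; for 13 the difference was more positive in tumor cells, for 0 it was more negative by limma, and 7 were not called. At an unadjusted p under 0.05, 0 were more negative too, and count models were not run on this difference. Over all genes 33.2% were called, 18% as more positive in tumor cells and 15.2% as more negative. The median was 2.02 over the members and 0.01 over all genes.

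Opposite directions, each called in its own species, were seen in 7 symbols. Col6a2 differed most between species (4.64 ± 0.65, adjusted p = 0.00356), followed by Col6a1 (4.36 ± 0.47, adjusted p = 0.00176) and Col5a1 (4.18 ± 0.33, adjusted p = 0.000945), each positive in tumor cells and negative in the host, and in 5 of 5 rats the mouse difference was the larger. Col4a5 (3.55 ± 0.66), Col16a1 (2.82 ± 0.38), Col8a1 (2.22 ± 0.30) and Col4a2 (1.25 ± 0.18) had the same pattern. For Col12a1 (4.01 ± 0.41, adjusted p = 0.00156) and Col11a2 (2.67 ± 0.40, adjusted p = 0.00426), tumor cells rose and the host was not called. For Col24a1 (2.67 ± 0.69), Col7a1 (2.38 ± 0.42) and Col4a1 (0.97 ± 0.20), the host fell and tumor cells were not called. Col20a1 rose in both species, and more in tumor cells (1.24 ± 0.29, adjusted p = 0.0177). The species difference of Col24a1 was lost without Rat3867, without Rat3869 and without Rat3875, and that of Col20a1 without Rat3867, without Rat3876 and without Rat3877.

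**Figure D5:**
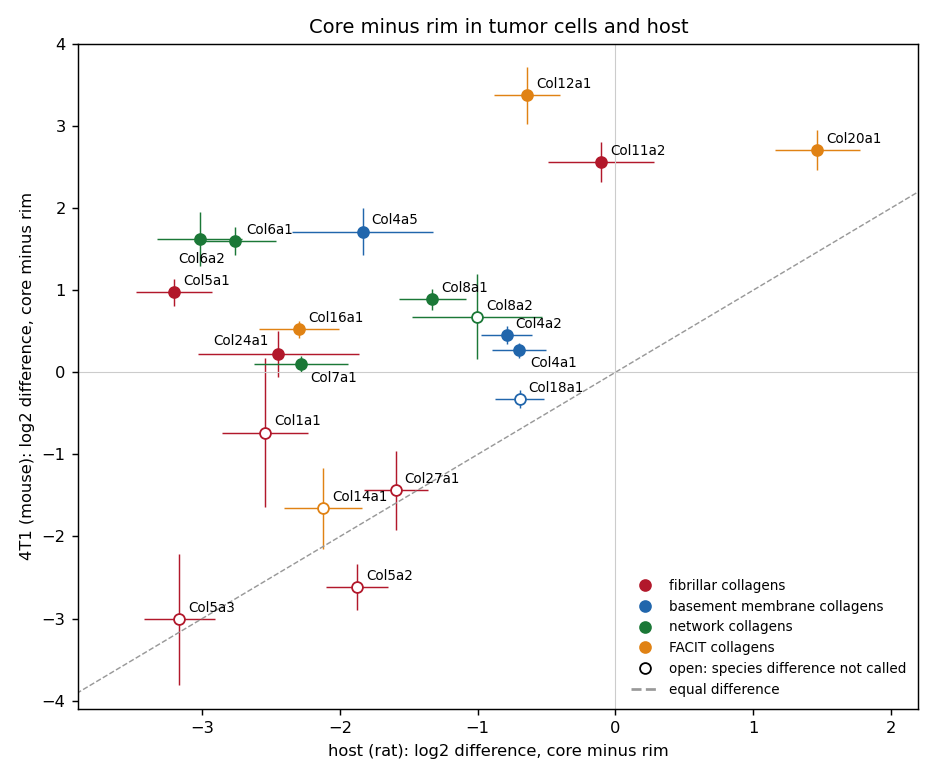
Log2 difference, core minus rim, in rat reads (x) and in mouse reads (y) for the 20 tested collagen symbols; lines are standard errors, colors are collagen types, filled points were called for the difference between species and the dashed line marks equal differences. Filled points lie above the line, with Col6a1, Col6a2 and Col5a1 in the upper left, and Col20a1 is the only symbol with both values well above 0.

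Lung was compared with rim in mouse reads, without a block, since Rat3867 gave no lung and Rat3789 no rim. Of 23 tested members, 7 were higher in lung, 2 lower and 14 not called; over all 12970 mouse genes 20.1% were called, 9.91% as higher and 10.2% as lower. The median was 0.07 over the members and 0.01 over all genes. Of all calls 49.4% were increases, and 60.8% with values scaled to the total count, under which the collagen calls stayed at 7 higher and 2 lower. Without Rat3789, 6 were higher and 6 lower among 21 tested, and with a block over the 4 rats that gave both tissues, 7 were higher and 5 lower. Col6a3 passed the filter through the lungs only; among the other 22 tested members 6 were higher and 2 lower. The lower calls added without Rat3789 were Col1a1 (-3.36), Col14a1 (-1.90), Col4a1 (-0.67) and Col4a2 (-0.43). Expected host reads came to 72.3% of the rim reads and 83.2% of the lung reads for Col1a1, and to 105% and 62.6% for Col14a1. With these subtracted, over all lungs, the log2 difference was -2.62 (adjusted p = 0.44) for Col1a1 and turned to 3.17 (adjusted p = 0.0345) for Col14a1. The value of Col14a1 rests on few or no remaining rim reads and gives no direction.

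Of type VI collagen, Col6a1 and Col6a2 were higher in lung. Col6a2 had 21.4, 79.1, 70.7 and 51.9 CPM and 36.9 CPM in Rat3789 (2.47 ± 0.34, adjusted p = 0.000929; 2.56 without it), and Col6a1 had 271, 382, 395 and 414 CPM and 319 CPM in Rat3789 (2.197 ± 0.18, adjusted p = 5.76e-05; 2.23 without it). For both chains, every lung library was above every rim library. Col6a3 had 4.21, 20.3, 7.61 and 5.88 CPM in the lungs of the 4 rats and 3.75 in that of Rat3789, against 0.167 to 0.474 CPM in the rim. Since no rim library reached 1 CPM, these levels are a description, and without Rat3789 the gene fell below the filter.

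Among the other increases, Col4a6 had 6.31, 6.68, 6.66 and 9.21 CPM in lung and 7.87 CPM in Rat3789 (2.16 ± 0.35, adjusted p = 0.00196), and Col4a5 (1.51 ± 0.31), Col5a3 (1.14 ± 0.25) and Col5a1 (1.00 ± 0.26) were higher. The gland held 3 mouse and 4 rat reads of Col4a6, too few to estimate host reads among its lung reads, and their part was not tested. Col5a1 lost its call without Rat3875 and without Rat3876. Col7a1 had 403, 273, 279 and 340.1 CPM in lung and 815 CPM in Rat3789, a library at the level of the rims, and was called lower (-0.93 ± 0.26, adjusted p = 0.0261). Without Rat3789 its log2 difference was -1.20 (adjusted p = 0.000562). Its call was lost without each of the 5 other rats in turn, and also with edgeR and with DESeq2 on all libraries. Col5a2 was called lower (-1.66), at a level at which expected host reads made up 126% of its lung reads. All 5 epithelial markers were lower in lung than in rim, with sums of 1875 to 2817 CPM in lung; their part in the collagen values was not tested.

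In mouse reads of lung against core, collagens were called lower in lung more often than higher. Of 23 tested, 3 were higher in lung and 12 lower, with 17.1% and 19.1% of all genes called in these directions (36.3% in all). The median over the members was -0.58, and over all genes -0.02. Col28a1 passed the filter through the core only; among the other 22, 3 were higher and 11 lower. Of all calls 47.2% were increases, and 62.0% with total-count scaling, under which 4 collagens were higher and 11 lower. Col12a1 had 11.1, 35.8, 5.14 and 8.53 CPM in lung and 29.1 CPM in Rat3789, below every core library (-3.41 ± 0.44, adjusted p = 0.000114). Col20a1 (-2.98 ± 0.25) and Col11a2 (-2.90 ± 0.27) were lower in lung as well, without overlap. Col5a3 was higher in lung than in the core (4.15 ± 0.82, adjusted p = 0.00182), with 5.67, 6.68, 6.32 and 9.33 CPM and 3.99 CPM in Rat3789. Col6a1 was slightly higher (0.60 ± 0.17, adjusted p = 0.0145), a call lost without Rat3875 and without Rat3876. Col5a2, also called higher, had a log2 difference of 0.72 (adjusted p = 0.0572) without Rat3789 and of -0.03 (adjusted p = 0.979) with expected host reads subtracted. The call was also lost without Rat3867, without Rat3876 and without Rat3877. Without Rat3789, 2 were higher and 13 lower. Core, rim and lung comparisons share libraries, so their values are given side by side only.

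Host lung and tumor rim are different organs, and the comparison of rat reads describes where each collagen is high. Of 31 tested members, 5 were higher in lung and 16 lower, against 10.5% and 11.6% of all genes (22.1% in all); the median was -1.53 over the members and 0.02 over all genes. Of all calls 47.6% were increases, and 66.0% with total-count scaling, which moved the median of all genes to 0.15 and left 5 collagens higher and 16 lower. Without Rat3789, 6 were higher and 16 lower among 30 tested, but Col4a6 was then not tested, while Col13a1 (1.64) and Col6a6 (2.05) were newly called higher, and with a block over the 4 shared rats 8 were higher and 16 lower. Col4a6 passed the filter through the lungs only; among the other 30 tested members 4 were higher and 16 lower. Col4a3 had 35.6, 70.8, 47.4 and 88.2 CPM in 4 lungs, 10.7 CPM in Rat3789 and 0.705 to 2.04 CPM in the rim (5.38 ± 0.53, adjusted p = 0.00012). Col4a4 had 226, 297, 249.6 and 393 CPM in lung, 86.1 in Rat3789 and 6.43 to 17.9 in the rim (4.33 ± 0.40, adjusted p = 7.78e-05). Col4a5 (3.46 ± 0.58), their partner in the α3α4α5 trimer of thin basement membranes, and Col6a4 (2.34 ± 0.32) were higher too. Col4a6 is given as a description, with 5.58, 6.82, 9.20 and 8.17 CPM in 4 lungs, 1.31 CPM in Rat3789 and 0.0973 to 0.381 CPM in the rim. The library of Rat3789, which lacked alveolar transcripts, was the lowest lung for Col4a3, Col4a4, Col4a5 and Col4a6.

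Fibrillar host genes were lower in lung than in rim in 8 of 9 cases. Col1a1 had 1911, 681, 1344 and 494 CPM in 4 lungs and 7722 CPM in Rat3789 (-3.81 ± 0.64, adjusted p = 0.00225; -4.41 without it). Col3a1 had 4179, 2095, 2047 and 1429 CPM and 16642 CPM in Rat3789, within the range of the rims (-2.52 ± 0.58, adjusted p = 0.0113, and -3.09 without it). Its call was lost without Rat3875, without Rat3876 and with edgeR. Col5a3 (-4.23 ± 0.57), Col27a1 (-4.03 ± 0.23) and Col11a1 (-3.63 ± 0.59) showed the largest decreases beside Col1a1. Col4a1 had 1561, 1721, 1514 and 1609 CPM in lung and 1642 in Rat3789, the most even member across lungs, and was not called (-0.05 ± 0.16, adjusted p = 0.843). The collagen share of rat reads was 0.763 to 1.27% in the 4 lungs and 3.32% in Rat3789, and host fibroblast markers summed to 444.6 to 554 CPM in the 4 lungs and 2195 CPM in Rat3789; their part in its collagen values was not tested.

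Normal gland gives the host's own tissue without tumor, in RPM of rat reads and without a test. RPM of the gland are relative to all genes counted, and those of the rims to the 14876 rat genes followed here. Col1a1 stood at 696 and 1498 in the 2 gland libraries and Col3a1 at 886 and 1615, against 12732 to 27030.2 and 15676 to 24045 in the rims. Every rim was above both glands for these genes, and also for Col5a1 (55.3 and 106 in gland, 1366 to 2292 in rim), Col6a1 (78.6 and 154, 2503 to 4333) and Col12a1 (12.6 and 9.54, 967 to 1822). Col12a1 and Col8a1 (1.26 and 1.92 in gland, 235 to 482 in rim) showed the widest gaps among members above 100 RPM in the rim. The order was reversed for Col4a3 (4.64 and 3.65 in gland, 0.579 to 1.95 in rim), Col4a4 (26.4 and 34.2, 6.08 to 16.3) and Col4a5 (14.6 and 18.3, 3.47 to 11.7), for which both glands were above every rim.

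Collagen chains are modified in the endoplasmic reticulum, folded by chaperones, trimmed outside the cell and crosslinked. Of 34 listed genes of this work, 25 were tested in mouse reads between core and rim: 7 were higher in the core, 3 lower and 15 not called (median 0.30), where 10.1% of all mouse genes were called higher and 9.63% lower. The prolyl hydroxylase subunits P4ha1 (0.95 ± 0.13, adjusted p = 0.00273) and P4ha2 (0.78) and the lysyl hydroxylases Plod1 (0.88) and Plod2 (0.66) rose, while P4ha3 (-1.84 ± 0.30, adjusted p = 0.00507), Loxl3 (-0.96) and the C-proteinase Bmp1 (-0.71) fell. Serpinh1, the collagen chaperone HSP47, was not called (0.13 ± 0.13, adjusted p = 0.511), and Lox was not among the tested mouse genes. In rat reads 30 were tested, of which 21 were lower in the core, 2 higher and 7 not called (median -1.67), against 20.1% of all rat genes lower and 17.5% higher. Loxl4 (-3.52), the procollagen N-proteinases Adamts3 (-3.46) and Adamts14 (-3.22), Lox (-3.00 ± 0.29, adjusted p = 0.000201) and Serpinh1 (-2.59 ± 0.17, adjusted p = 7.01e-05) fell. Host P4ha1 (0.17 ± 0.09, adjusted p = 0.157) and Plod2 (-0.04 ± 0.22, adjusted p = 0.912) were not called. The higher ones were Mia2 (0.53) and Tmem38b (0.67).

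The same lists were followed to the lung. Between lung and rim, 5 of 25 mouse genes were higher and 2 lower, beside 9.91% and 10.2% of all mouse genes. Between lung and core 4 of 25 were higher and 7 lower, beside 17.1% and 19.1%, with P4ha2 (-1.80) and P4ha1 (-1.66) lower in lung than in core. Of 30 rat genes, 21 were lower and 2 higher in lung than in rim, beside 11.6% and 10.5% of all rat genes. Among 10 listed collagen receptors, 7 were tested in tumor cells between core and rim, and 1 was higher and 2 lower, beside 10.1% and 9.63% of all mouse genes. The integrin Itga10 rose (2.15), Itga2 (-2.25 ± 0.18, adjusted p = 0.000506) and Itga1 (-0.90) fell, and the discoidin receptors Ddr1 (0.08) and Ddr2 (-0.26) were not called. In the host 6 of 8 were lower in the core, beside 20.1% of all rat genes, led by the uptake receptor Mrc2 (-3.04 ± 0.22, adjusted p = 8.21e-05), with Itga2 (-2.09) and Ddr2 (-1.93) among them, while Ddr1 (-0.09) and Itga10 (-1.16) were not called.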

How the data were processed

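RNA of 18 samples was sequenced as polyA libraries: 5 core, 5 rim, 5 lung, 2 normal gland and 1 pellet of 4T1 cells. Limma, featureCounts, STAR and Trim Galore are named, per the submitters' processing notes, with GRCm38 and Rnor_6.0 as builds; their versions, how species were told apart and whether strand was used are not stated in these sources. The deposited tumor and lung values are a signal on the scale of CPM with the authors' scaling, in which 0.5 was added to each count; 100% of values gave whole reads within 0.01 reads. The deposited control files hold a raw count per gene. The 2 gland columns and their labels number the samples differently, so they were used as a group.

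Samples were grouped by their titles. The main test was limma 3.58.1 (R 4.3.3) with a trend on log2 of the deposited values, for genes that reached 1 CPM in no fewer than 5 of the compared libraries, with Benjamini-Hochberg adjustment over all genes and a threshold of 0.05. Core and rim were fitted with the rat as a block, because the labels give both from the same animal; the correlation of their deviations was -0.18 to 0.24 in mouse and 0.03 to 0.34 in rat reads. Lung comparisons had no block. The difference between species was fitted on log2 mouse minus log2 rat values of symbol-matched genes. Alternatives were edgeR 4.0.16 and DESeq2 1.42.0 on the recovered reads, other filters, scalings and blocks, leaving out rats, and subtraction of misplaced reads. Misplaced reads were estimated from the single-species controls, and the estimates are rough where controls hold few reads. All reads of the other species in a control were taken as misplaced, which was not tested. Helix repeats and exons come from GENCODE M21; rat gene lengths and positions were not used. The code was tested on simulated data.

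Values in every library are given for the 2 members of each type with the highest mean level. They are also given for the 5 largest called increases and decreases of core against rim. A few of these members are given as means or ranges instead. Lung comparisons name up to 4 of the largest called members each way, some without values in every library. Col2a1, Col4a2, Col9a3, Col3a1, Col6a3 and other members outside this rule were named after their values were seen. Members and lists were chosen with earlier results of these data known. Tumor and lung libraries ranged from 15346400 to 26669410 reads for mouse and from 3146720 to 10015352 for rat, and the pellet held 29446694 mouse reads.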

Additional observations from a re-analysis of the deposited data

Results flagged for a closer look

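Some libraries stood apart from the other 4 of their group by Dixon's test, which marks about 1 group in 20 by chance; of 153 groups examined, 26 held such a library. In 16 of these it was the lung library of Rat3789, the one that lacked alveolar transcripts. Its host collagen share was 3.32%, and its host values were 7722 CPM for Col1a1, 16642 for Col3a1, 1539 for Col6a1, 1619.9 for Col6a2, 278 for Col7a1, 145 for Col14a1, 50.4 for Col15a1 and 239.8 for Col18a1. Its tumor-cell values were 815 CPM for Col7a1, 559.9 for Col4a1, 334 for Col4a2, 497 for Col16a1, 11.2 for Col1a1, 9.54 for Col5a2 and 6.37 for Col11a2. Each of these was the highest lung value, and the other lungs are given by the counts without this library in the report.

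In tumor cells of the core, Rat3877 was highest for Col6a2 (59.3 CPM), Col6a3 (38.9 CPM) and Col14a1 (2.53 CPM), and Rat3875 for Col2a1 (6.27 CPM). In the rim, Rat3869 was highest for Col12a1 (35.3 CPM) and Rat3876 for Col14a1 (10.1 CPM), and in the lung Rat3875 was highest for Col6a3 (20.3 CPM). In the host, the rim of Rat3877 was highest for Col4a3 (2.04 CPM) and the core of Rat3876 was highest for Col4a6 (0.463 CPM) and Col24a1 (3.86 CPM).

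The core minus rim difference was more positive in tumor cells than in the host for 13 collagens, as log2 mouse minus rat differences with limma's adjusted p: Col6a2 4.64, Col6a1 4.36, Col5a1 4.18, Col12a1 4.01, Col4a5 3.55, Col16a1 2.82, Col11a2 2.67, Col24a1 2.67, Col7a1 2.38, Col8a1 2.22, Col4a2 1.25, Col20a1 1.24 and Col4a1 0.97, with adjusted p between 0.000945 and 0.0263.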

How the results depend on the processing

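Called collagens that kept direction and call in every alternative run that tested them were counted. They numbered 12 of 17 in tumor cells of core against rim and 18 of 23 in the host. In tumor cells of lung against rim and against core they numbered 5 of 9 and 6 of 15. In host lung against rim they were 14 of 21, and in the species difference 9 of 13. A run in which a member was not tested was not counted against it. Mouse Col28a1 and Col6a3 and rat Col4a6 are among those kept, although each passed the main filter through 1 group only. Leaving out 1 rat at a time gave 1260 to 2422 called genes in mouse core against rim with 1 to 5 collagens lower, 1323 to 2809 in mouse lung against rim with 1 to 6 collagens lower, 2998 to 5040 in mouse lung against core with 1 to 4 collagens higher, 1509 to 4077 in rat lung against rim and 2070 to 3122 in the species difference. Without Rat3876 and Rat3877 together the called genes numbered 3392 in rat core against rim, 1071 in mouse lung against rim, 1814 in mouse lung against core (5 collagens lower), 1072 in rat lung against rim (10 collagens lower) and 1404 in the species difference; fewer libraries entered these fits. Without the replicate block, 2 host collagens were higher in the core, as with log2(value + 1), with no filter and with upper-quartile scaling, and core against rim gave 2630 mouse and 5049 rat calls. With the replicate block over 4 shared rats, 5 tumor-cell collagens were lower in lung than in rim and 8 host collagens were higher. The paired fit changed no other count by over 1.5 times. With expected misplaced reads subtracted, 1 tumor-cell collagen was lower in core than in rim and 1 in lung than in rim. Col14a1 turned to 2.73 (adjusted p = 0.0463) in core against rim and Col5a2 to -0.034 (adjusted p = 0.979) in lung against core. For both genes expected host reads exceeded the reads of a compared group, so these values give no direction. Without genes over 10% misplaced, 0 tumor-cell collagens were lower in the core by limma, with 2 at an unadjusted p under 0.05, and 1 was lower in lung than in rim. On the recovered reads edgeR called 2536 mouse and 4993 rat genes and DESeq2 3036 and 4364 in core against rim. DESeq2 had 5 tumor-cell collagens lower in core than in rim and 4 lower in lung than in rim, where edgeR had 1. Without the 2 members with the most reads, collagen shares were 0.231% (mouse core), 0.143% (mouse rim), 0.190% (mouse lung), 0.524% (rat core), 1.80% (rat rim) and 0.643% (rat lung). Where a cause is not named the cause was not tested. Depth limits the members near 1 CPM, most of all in rat reads, of which the shallowest library held 3146720.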
